A study of Mus musculus with 6 samples.

Results

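The genes of the TGF-beta, BMP and activin pathway were examined in mouse embryonic fibroblasts that lacked a working Ing1 locus. The list names 58 genes by role: 13 ligands, 5 genes of the latent complex and of ligand proteolysis, 12 receptors, 8 antagonists, 7 Smads, 6 intracellular regulators and 7 targets. A probe belonged to the pathway when its only annotated gene symbol was on the list. By that rule 54 of the 58 genes had a probe, out of 18069 genes on the array, and they were read by 60 probes. No probe of 1 symbol was found for Gdf15, Ltbp2, Eng and Smad7. Of the 60 probes, 51 for 46 genes entered the test, which needed every array of 1 genotype or the other to carry a good quality flag for the probe.

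The deficient cultures C4, C3 and B1 came from embryos with a gene-trap cassette inserted in Ing1, and cultures H2, H3 and I2 came from wild-type embryos that the labels call littermates. Which cultures shared a litter is not stated, and no leading letter of a culture name occurs in both genotypes. All 6 were unsorted early-passage fibroblasts, each prepared from a separate embryo and read on its own 1-colour CodeLink array. No treatment, strain or exact age is given for the cultures, and no ligand or inhibitor is named. Ing1 encodes a PHD-finger protein of histone deacetylase complexes, and the comparison asked which genes differ when it is lost.

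On the arrays 55.5% to 62.1% of 34967 transcript probes carried a good flag, and signals are given in units of each array's median transcript probe. The probe for Ing1 read 0.93 to 1.39 in the deficient cultures and 11.1 to 11.7 in the wild-type cultures (log2 difference -3.23 ± 0.19, SE, limma adjusted p = 2.86e-04). All 10 fibroblast marker genes were read with a good flag on all 6 arrays, with a summed signal of 728 to 769 in deficient and 673 to 760 in wild-type cultures. The Y-linked gene Eif2s3y read 16.8 in B1, 16.3 in H2 and 12.1 in H3 but 0.408 or less in C4, C3 and I2, so by this gene each genotype held both sexes. Array H3 lay nearer to the deficient mean than to the mean of H2 and I2 for 51.5% of all 19575 tested probes. The same measure, each array against the other genotype, was 29.9% to 39.7% for the other 5 arrays. Results are given with and without H3 where its absence changes a call. Leaving out the wild-type array that is nearest to the deficient cultures widens differences by construction, so values without H3 are descriptions and no support for a call. Limma weights for array quality were lowest for C4 (0.4), followed by H3 (0.53) and H2 (0.67), and highest for I2 (3.56).

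Ligands of this family are secreted as dimers, and TGF-beta itself stays bound in a latent complex in the matrix until it is released. A ligand joins type II and type I receptor kinases, which phosphorylate receptor Smads. These then enter the nucleus with Smad4: Smad2 and Smad3 for TGF-beta and activin, Smad1 and Smad5 for BMPs. Inhibitory Smads, Smurf ubiquitin ligases and nuclear corepressors limit the signal inside the cell, and antagonists such as noggin, gremlin and follistatin bind ligands outside it. In fibroblasts TGF-beta is known for inducing matrix genes, and BMPs for inducing the Id genes.

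Of the 51 tested pathway probes 4 differed between the genotypes at an adjusted p under 0.05 in limma, or 7.84%, against 6.57% of all tested probes. The matrix protein gene Tgfbi and the feedback regulator gene Pmepa1 were higher in deficient cultures. The BMP antagonist gene Grem1 and the Id family gene Id4 were lower. Id4 was flagged low in C4 and C3 and entered the test through the wild-type arrays alone. By direction the 4 are 2 probes higher and 2 lower, where 4.94% of all tested probes were higher and 1.63% lower. At an unadjusted p under 0.05 there were 14 of the 51, 5 higher and 9 lower. Of all tested probes 26.2% reached that level, 17% higher and 9.21% lower.

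The 4 calls did not hold in most fits on fewer arrays or with the sex marker. With any of C4, B1, H2 or I2 left out, limma called 0 of the 51, and without C3 it called Tgfbi alone. With Eif2s3y as a covariate it called 0 of the 51, and 23 of all tested probes, while the differences stayed at 0.98 for Tgfbi, 0.81 for Pmepa1, -1.29 for Grem1 and -1.06 for Id4 (adjusted p = 0.0673, 0.0982, 0.074 and 0.0807). Without H3 it called 12 of the 51, and 13.9% of all tested probes.

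More of the listed members had a negative than a positive difference, deficient minus wild type. Of the 51 probes 17 were positive and 34, or 66.7%, negative, against 48.1% negative of all tested probes and 39% of 59 tested probes for other genes of the pathway. The median over the 46 genes was -0.10, against 0.07 over all tested genes. The 3 deficient arrays lay entirely above the wild-type arrays for 5 probes and entirely below for 8, and over all tested probes these shares were 20.1% and 11.3%, or 31.4% in either direction. The signal of a culture cannot tell fewer expressing cells from less RNA per cell.

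**Figure D1:**
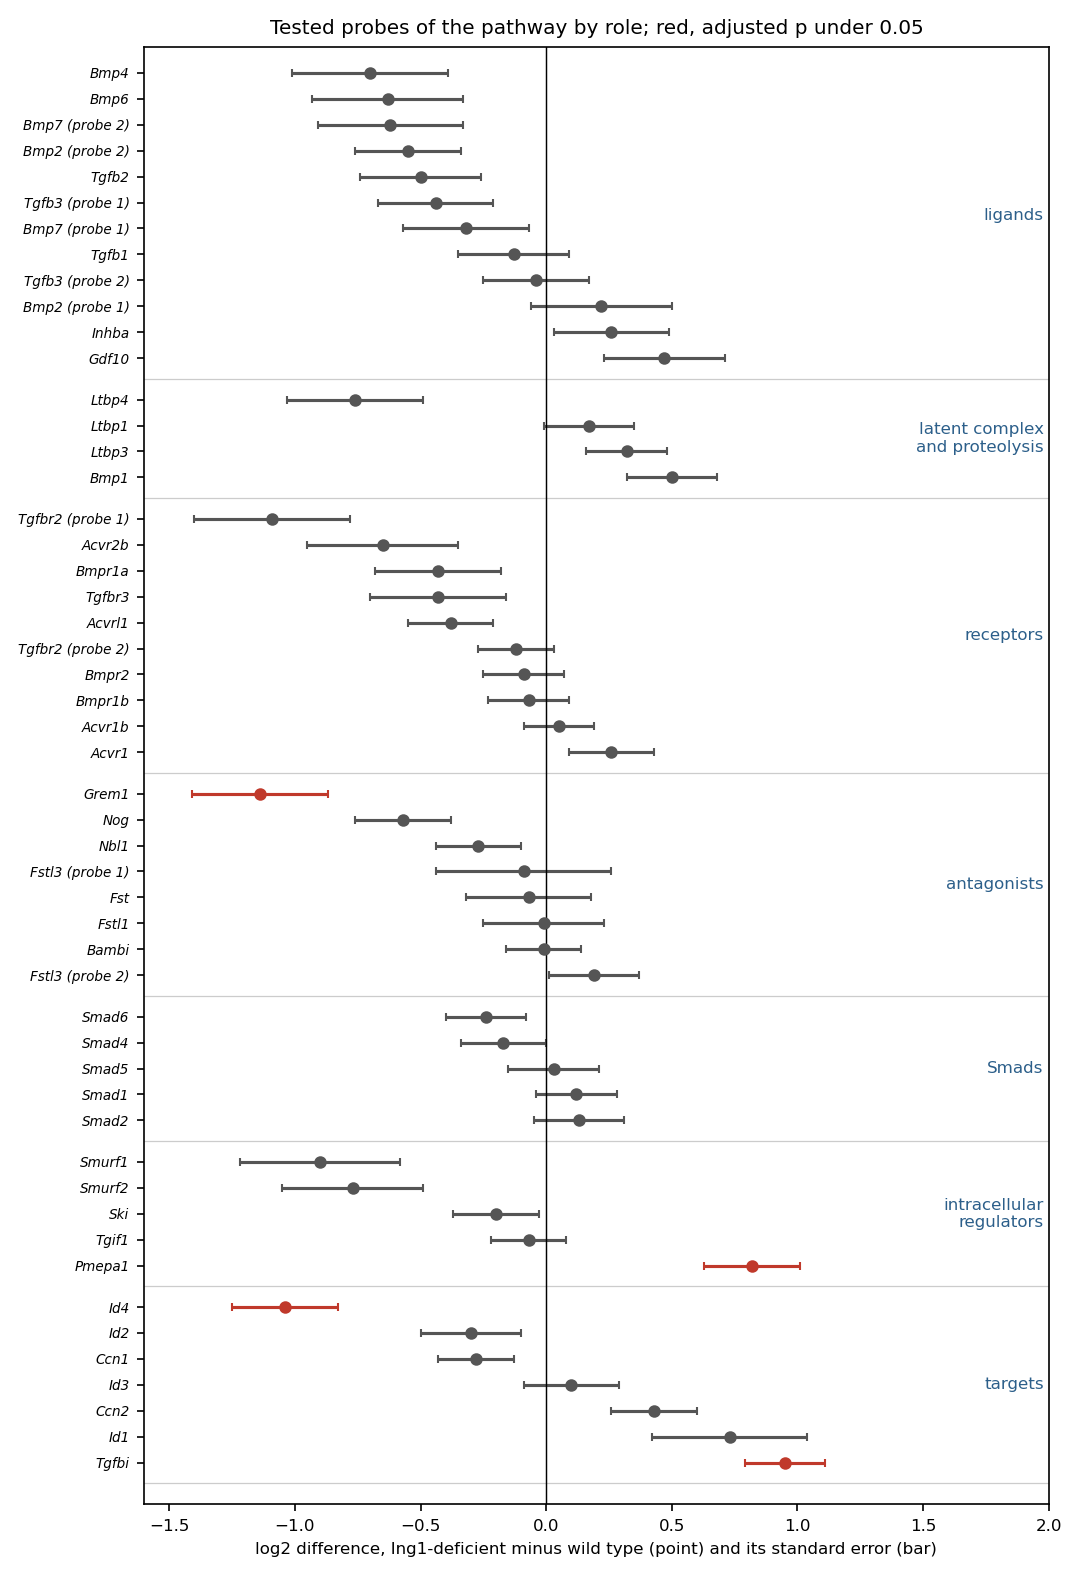
Log2 difference, deficient minus wild type, on the horizontal axis for each of the 51 tested probes, ordered by role, with the standard error from limma as a bar. The 4 red probes have an adjusted p under 0.05, 2 to the right of zero (Pmepa1 and Tgfbi) and 2 to the left (Grem1 and Id4).

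Promoter windows of called genes are shown because Smads bind short DNA motifs near the genes they act on. Each window holds the 250 bases before the RefSeq start of the gene in assembly GRCm38.p6, written on the strand of the gene. Capitals mark CAGAC, the Smad-binding core, or its complement GTCTG, and GGCGCC, a GC-rich sequence bound by BMP Smads. The Tgfbi window is chr13:56609336-56609585 on the plus strand, the Grem1 window chr2:113758649-113758898 on the minus strand and the Id4 window chr13:48260866-48261115 on the plus strand.
Tgfbi: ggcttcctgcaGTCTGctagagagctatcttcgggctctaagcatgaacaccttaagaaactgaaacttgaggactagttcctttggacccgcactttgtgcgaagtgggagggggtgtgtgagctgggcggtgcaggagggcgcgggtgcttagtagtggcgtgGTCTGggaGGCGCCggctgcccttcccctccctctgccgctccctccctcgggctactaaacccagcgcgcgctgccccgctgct
Grem1: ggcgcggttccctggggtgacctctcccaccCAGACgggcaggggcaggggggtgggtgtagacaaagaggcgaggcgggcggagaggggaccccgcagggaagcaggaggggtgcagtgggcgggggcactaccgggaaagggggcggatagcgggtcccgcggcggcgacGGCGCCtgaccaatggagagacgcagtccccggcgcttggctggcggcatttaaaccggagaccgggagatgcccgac
Id4: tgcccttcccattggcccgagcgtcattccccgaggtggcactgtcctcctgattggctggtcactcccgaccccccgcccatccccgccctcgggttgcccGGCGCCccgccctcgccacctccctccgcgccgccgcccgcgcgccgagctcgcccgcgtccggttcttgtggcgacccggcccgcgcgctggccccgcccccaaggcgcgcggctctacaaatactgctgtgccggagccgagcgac

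The Tgfbi window held 2 matches to the Smad-binding core, both as GTCTG, that began 239 and 85 bases before the start, and 1 match to GGCGCC. In Grem1 there was 1 match to the core, 219 bases before the start, and 1 match to GGCGCC. Id4 had 0 matches to the core and 1 to GGCGCC in a window of 75.6% GC, against 72.0% for Grem1 and 62.4% for Tgfbi. No match of CAGAC overlapped a match of GGCGCC in these windows. On either strand, CAGAC occurred in 42.2% of all 32851 promoter windows of this length and GGCGCC in 9.6%. Of the 54 windows of the 41 pathway genes that were matched, 27 held CAGAC and 15, or 27.8%, held GGCGCC. Pmepa1 was not among the matched genes. A match is a description of the letters and was not tied to binding in these cells.

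Of the 13 ligand genes 9 were tested by 12 probes, and 0 of the 12 passed in limma, with 2 at an unadjusted p under 0.05. The median over the 9 genes was -0.32, with 3 genes positive and 6 negative. Bmp4, a BMP of mesenchyme, read 10.6, 25.7 and 21.4 in C4, C3 and B1 and 25.6, 36.3 and 27.0 in H2, H3 and I2. C4 was far below the other 5 arrays, and C3 lay within the wild-type range (-0.70 ± 0.31, limma adjusted p = 0.19). The difference was -0.32 to -0.96 with single arrays left out.

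The probes for Bmp2, another BMP ligand, pointed in opposite directions. Probe 2 read 1.36, 0.851 and 1.27 in C4, C3 and B1 and 1.97, 1.56 and 1.53 in H2, H3 and I2, with I2 flagged as irregular. All deficient values lay below all wild-type values (-0.55 ± 0.21, limma adjusted p = 0.138). Probe 1 read 1.38 to 2.43 in deficient and 1.28 to 2.35 in wild-type cultures, ranges that overlapped almost fully (0.22 ± 0.28). Bmp7 gave -0.32 ± 0.25 and -0.62 ± 0.29 with its probes 1 and 2, and C3 was the lowest array for each.

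Among the TGF-beta isoforms the wild-type cultures differed among themselves. Tgfb3 probe 1 read 75.3, 71.1 and 77.1 in C4, C3 and B1 and 126, 69.5 and 117 in H2, H3 and I2. H2 and I2 stood above all deficient arrays, while H3 stood below them (-0.44 ± 0.23, limma adjusted p = 0.259, and -0.71 with adjusted p = 0.0255 without H3). Tgfb2 had a like pattern, at 8.96, 8.15 and 9.72 in deficient cultures and 16.0, 8.43 and 14.9 in H2, H3 and I2. Its C3 spot was flagged as irregular. For Tgfb2 H3 lay among the deficient values. The Tgfb2 difference was -0.50 ± 0.24 with all arrays (limma adjusted p = 0.229) and -0.79 without H3 (adjusted p = 0.021). Tgfb1 gave -0.13 ± 0.22, with a 95% interval of -0.63 to 0.37, and the second Tgfb3 probe -0.04 ± 0.21.

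The remaining ligands did not pass with all arrays. Bmp6 gave -0.63 ± 0.30 and Gdf10 0.47 ± 0.24. Without H3 both passed in limma, Bmp6 at -0.93 (adjusted p = 0.0495) and Gdf10 at 0.73 (adjusted p = 0.0413). The Gdf10 spot on H3 was flagged as irregular. Inhba, the subunit of activin A, read 25.1 to 37.9 in deficient and 21.7 to 34.6 in wild-type cultures (0.26 ± 0.23). Both Inhbb probes and the Bmp5 probe were flagged low on all 6 arrays. Gdf5 had a good flag on 2 arrays of each genotype, with signals of 0.197 to 1.36 and 0.228 to 0.655, and was not tested.

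The 4 tested genes of the latent complex and proteolysis had a median of 0.25, and 0 of 4 passed in limma, with 2 at an unadjusted p under 0.05. Ltbp4 tethers latent TGF-beta to elastic fibres. It read 1.48, 0.957 and 1.90 in C4, C3 and B1 and 2.98, 1.83 and 2.38 in H2, H3 and I2. B1 lay just above H3, so the groups overlapped (-0.76 ± 0.27, limma adjusted p = 0.119). The other binding protein genes gave 0.17 ± 0.18 for Ltbp1 and 0.32 ± 0.16 for Ltbp3.

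Bmp1 encodes a protease that trims procollagen and cleaves chordin. It read 9.60, 13.6 and 13.6 in C4, C3 and B1 and 8.54, 8.19 and 8.88 in H2, H3 and I2. Every deficient value was above every wild-type value, with C4 the nearest to them (0.50 ± 0.18, limma adjusted p = 0.116). The difference was 0.67 at its highest and 0.42 at its lowest with single arrays left out, and it passed in 0 of those 6 fits.

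Of 12 receptor genes 9 were tested by 10 probes, and 0 of the 10 passed in limma, with 1 at an unadjusted p under 0.05. The median over the 9 genes was -0.12, with 2 positive and 7 negative. The exception at the unadjusted level was Tgfbr2, the type II receptor that binds TGF-beta first. Its probe 1 read 1.26, 1.44 and 0.927 in C4, C3 and B1 and 3.43, 1.51 and 3.10 in H2, H3 and I2. H2 and I2 were well above the deficient arrays, and H3 lay next to C3 (-1.09 ± 0.31, limma adjusted p = 0.0688). Without H3 it was -1.46 with an adjusted p of 0.00699.

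The second Tgfbr2 probe did not show that gap. It read 2.40, 2.33 and 2.01 in C4, C3 and B1 and 2.52, 2.36 and 2.39 in H2, H3 and I2. The groups overlapped, and the difference of -0.12 ± 0.15 had a 95% interval of -0.45 to 0.22, which does not include the estimate of probe 1. The files do not give the position of either probe in the transcript.

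Among the other receptors Acvr2b, a type II activin receptor, gave -0.65 ± 0.30, with 11.3 in H2 and 3.56 to 6.90 in the other 5 arrays. Acvrl1, the type I receptor ALK1, was lower in all 3 deficient arrays, at 0.867 to 1.07 against 1.13 to 1.48 (-0.38 ± 0.17, limma adjusted p = 0.191). Bmpr1a gave -0.43 ± 0.25 and the co-receptor Tgfbr3 -0.43 ± 0.27. Intervals were narrower for Acvr1b (-0.27 to 0.37), Bmpr1b (-0.42 to 0.29) and Bmpr2 (-0.44 to 0.26), and Acvr1 gave 0.26 ± 0.17. Tgfbr1 was flagged low on all 6 arrays. Acvr2a was read at 1.87 to 2.56 in deficient and 1.45 to 1.80 in wild-type cultures, but irregular flags in C4 and H2 kept it out of the test.

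Grem1, the secreted BMP antagonist gremlin, had the most negative difference of the tested pathway probes. It read 2.86, 2.40 and 2.67 in C4, C3 and B1 and 4.92, 4.28 and 9.41 in H2, H3 and I2. The deficient cultures lay close together and below all wild-type cultures, while I2 was far above H2 and H3, with a mean of 2.65 ± 0.233 against 6.21 ± 2.79 (SD, n = 3 per genotype). This is a 2.21-fold fall (-1.14 ± 0.27, limma adjusted p = 0.0439). The difference was -0.80 to -1.37 with single arrays left out, and it passed in 1 of those fits, without H3 (adjusted p = 0.0167), with an adjusted p of up to 0.129 in the others.

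Noggin, encoded by Nog, also binds BMPs. It read 1.98, 1.29 and 1.68 in C4, C3 and B1 and 2.69, 2.19 and 2.39 in H2, H3 and I2. Each deficient value was below each wild-type value, but the difference did not pass over all probes (-0.57 ± 0.19, limma adjusted p = 0.102). Nbl1, of the same family as gremlin, gave -0.27 ± 0.17.

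The other antagonists gave values near zero. Fst, which encodes the activin-binding protein follistatin, read 9.31 to 17.9 in deficient and 10.9 to 15.0 in wild-type cultures (-0.07 ± 0.25). Fstl1 gave -0.01 ± 0.24 and the pseudoreceptor gene Bambi -0.01 ± 0.15, and the Fstl3 probes gave -0.09 ± 0.35 and 0.19 ± 0.18. Chrd was flagged low on all 6 arrays. Over the 7 tested antagonist genes the median was -0.09, and it ran from -0.39 without H3 to 0.04 with single arrays left out, so its sign depended on the arrays used.

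Smad genes, which carry the signal to the nucleus, showed 0 calls in limma over 5 tested probes, and 0 at an unadjusted p under 0.05. Their differences ran from -0.24 to 0.13 with a median of 0.03. Smad4, the common partner, read 9.35, 8.98 and 8.42 in C4, C3 and B1 and 11.7, 8.61 and 9.95 in H2, H3 and I2 (-0.17 ± 0.17). The 95% intervals were -0.25 to 0.49 for Smad1, -0.28 to 0.54 for Smad2, -0.37 to 0.44 for Smad5 and -0.61 to 0.13 for the inhibitory Smad6. Differences within those bounds were not resolved with 3 arrays a genotype. Smad3 was flagged low on all 6 arrays, with signals of 0.0933 to 0.62.

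Pmepa1 encodes a membrane protein that is induced by TGF-beta and binds receptor Smads. It read 18.4, 19.9 and 20.1 in C4, C3 and B1 and 8.65, 13.3 and 11.6 in H2, H3 and I2. The deficient cultures lay within a narrow range above all wild-type cultures, of which H3 was the nearest, and the means were 19.5 ± 0.938 in deficient and 11.2 ± 2.37 in wild-type cultures (SD, n = 3 per genotype). This is a 1.76-fold rise (0.82 ± 0.19, limma adjusted p = 0.0388). With single arrays left out the difference was 0.64 to 0.95, and it passed in 1 of the 6 fits, without H3, with an adjusted p of up to 0.139 in the others.

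Genes of the Smurf ubiquitin ligases, which mark Smads and receptors for degradation, were both highest in H2 and next highest in I2. Smurf1 read 1.21, 2.03 and 1.88 in C4, C3 and B1 and 4.81, 1.97 and 3.19 in H2, H3 and I2. H3 lay between the deficient values (-0.90 ± 0.32, limma adjusted p = 0.117). Smurf2 read 6.19, 4.67 and 5.16 against 14.1, 6.34 and 8.23, in the same order of arrays. The groups of Smurf2 did not overlap, although H3 exceeded C4 by little (-0.77 ± 0.28, limma adjusted p = 0.12). Without H3 both passed, Smurf1 at -1.23 (limma adjusted p = 0.0257) and Smurf2 at -1.02 (adjusted p = 0.0348).

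The nuclear corepressor genes showed small differences. Ski gave -0.20 ± 0.17 and Tgif1 -0.07 ± 0.15, with groups that overlapped. Skil had a good flag on H2 alone, at 1.02, and read 0.242 to 0.429 elsewhere. Over the 5 tested intracellular regulators 1 rose, 0 fell and 4 did not pass in limma.

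All 7 target genes were tested, and 1 rose, 1 fell and 5 did not pass in limma, with 4 at an unadjusted p under 0.05. The median was 0.10, with 4 positive and 3 negative. Tgfbi, a matrix protein named for its induction by TGF-beta, read 14.9, 12.6 and 14.1 in C4, C3 and B1 and 6.88, 8.01 and 6.69 in H2, H3 and I2. The lowest deficient culture was well above the highest wild-type culture, and the spread within each genotype was small. Deficient cultures averaged 13.9 ± 1.16 and wild-type cultures 7.19 ± 0.714 (SD, n = 3 per genotype), a 1.93-fold rise (0.95 ± 0.16, limma adjusted p = 0.022). The call held without C3 and without H3 and was lost without each of the other 4 arrays, with a difference of 0.90 to 1.03 over these 6 fits and an adjusted p of up to 0.116.

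The Id genes, which encode partners of helix-loop-helix factors that cannot bind DNA, did not share a direction. Id4 read 0.253, 0.292 and 0.676 in C4, C3 and B1 and 1.40, 0.913 and 1.50 in H2, H3 and I2. C4 and C3 were flagged low, so the probe was read with a good flag in 1 of 3 deficient and in 3 of 3 wild-type cultures. With low values set to the floor of 0.57, the difference was -1.04 ± 0.21 (limma adjusted p = 0.0312). It was -1.75 with a floor of 0.01 and -0.23 with a floor of 1.14, neither of which passed (adjusted p = 0.058 and 0.316), so its size rests on the treatment of dim spots. With single arrays left out it passed in 1 of 6 fits, without H3 (-1.26, limma adjusted p = 0.00506), and the adjusted p was up to 0.134 in the others.

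Id1, a direct BMP target, read 13.1, 12.6 and 10.2 in C4, C3 and B1 and 8.22, 10.6 and 4.21 in H2, H3 and I2. I2 was far below the other arrays, and H3 exceeded B1, so the groups overlapped. The difference was 0.73 ± 0.31 (limma adjusted p = 0.17), 1.02 without H3 (adjusted p = 0.0494) and 0.35 at its lowest over the fits on 5 arrays. Id2 read 20.6, 12.7 and 15.2 in C4, C3 and B1 and 21.1, 20.8 and 17.1 in H2, H3 and I2. C4 lay among the wild-type values, and C3 and B1 lay below them (-0.30 ± 0.20, limma adjusted p = 0.377).

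Id3 had signals of 71.1, 51.6 and 61.5 in C4, C3 and B1 and 58.9, 64.9 and 47.8 in H2, H3 and I2. The groups overlapped throughout (0.10 ± 0.19), and the sign turned after quantile normalization, where the difference was -0.02. Of the 4 Id genes, then, only Id4 passed, with a size that rests on dim spots. The other differences ran from -0.30 to 0.73.

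The matricellular genes Ccn1 and Ccn2, induced by TGF-beta and by mechanical load, went in opposite directions without passing. Ccn2 read 72.0, 78.2 and 99.5 in C4, C3 and B1 and 61.0, 62.9 and 59.4 in H2, H3 and I2, so that every deficient value was higher (0.43 ± 0.17, limma adjusted p = 0.144). Ccn1 read 67.1, 63.6 and 65.1 against 75.4, 87.4 and 75.6 in the same order, so that every deficient value was lower (-0.28 ± 0.15, limma adjusted p = 0.263).

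**Figure D2:**
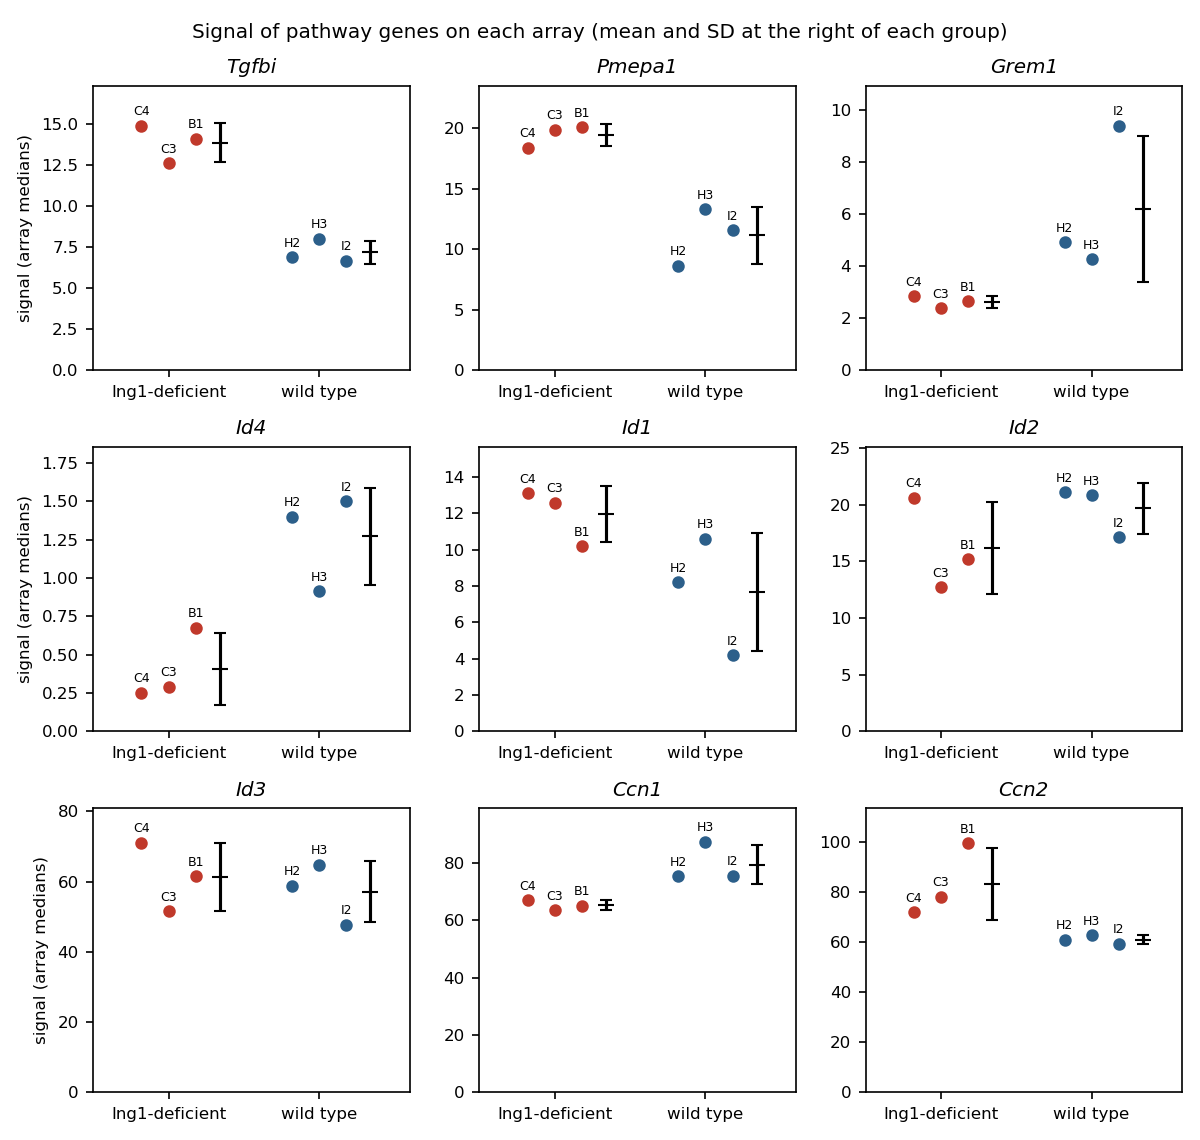
Signal in array medians, on a linear axis from 0, for the 4 called genes and the other targets, with a point for each of the 3 deficient (red) and 3 wild-type (blue) cultures and the mean with SD beside each group. Tgfbi, Pmepa1, Grem1 and Id4 have groups that do not overlap, as do Ccn1 and Ccn2, whereas those of Id1, Id2 and Id3 overlap.

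The place of H3 differed from gene to gene within the pathway. It lay nearer to the deficient mean for 28 of the 51 probes, or 54.9%. C4 lay nearer to the wild-type mean for 24 of the 51, and the other 4 arrays were nearer to the other genotype for 9 to 21. Tgfb2, Tgfb3, Bmp6, Tgfbr2, Smurf1 and Id1 were among the members where H3 resembled the deficient cultures. In Tgfbi and Pmepa1 it lay nearer to H2 and I2. Without H3 the 12 calls were 4 higher and 8 lower, against 8.97% and 4.96% of all tested probes in those directions. The added members were Tgfb2, Tgfb3, Bmp6, Gdf10, Tgfbr2, Smurf1, Smurf2 and Id1, and the set with H3 is contained in the set without it.

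**Figure D3:**
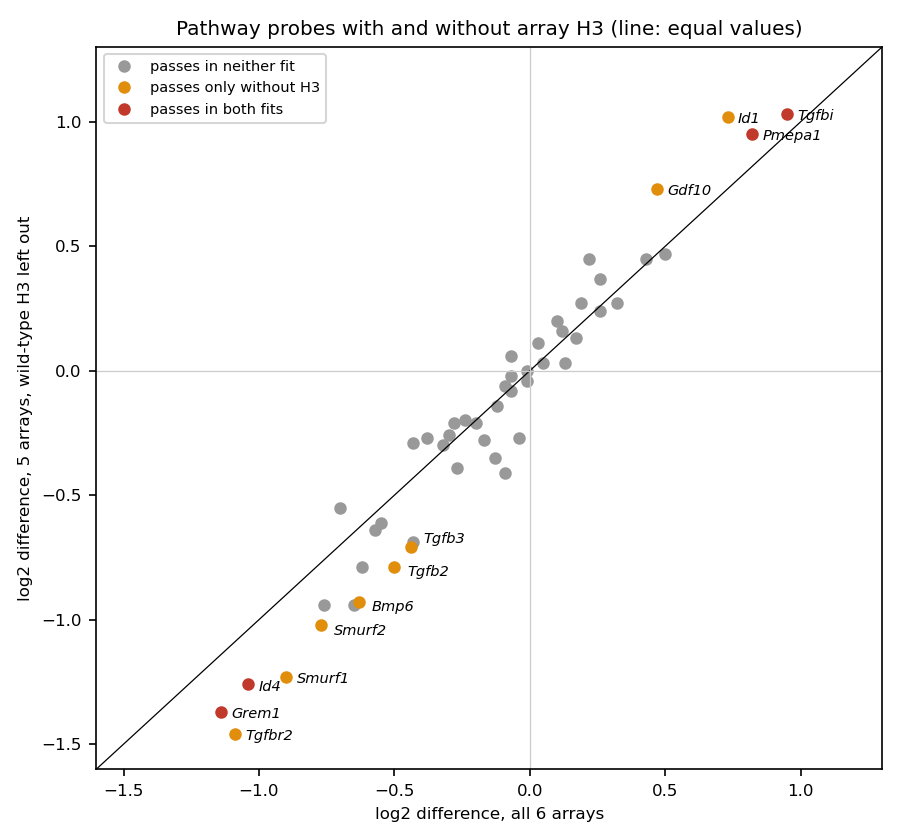
Log2 difference of each tested probe with all 6 arrays (horizontal) and with wild-type array H3 left out (vertical), where the diagonal marks equal values. The 8 orange probes pass only without H3 and the 4 red probes pass in both fits. All 12 lie farther from zero without H3.

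The spread among cultures of a genotype differed between roles. As the SD of a role's median deviation, pooled over both genotypes, it was 0.20 for targets and 0.19 for ligands. It was 0.17 for antagonists and for the latent complex and proteolysis, 0.13 for intracellular regulators, 0.09 for Smads and 0.07 for receptors. Deviations of single arrays also hold the difference between genotypes. The ligands, taken as the median deviation of the 9 genes from their own means, stood at -0.23 in C4, 0.00 in C3 and 0.03 in B1, and at 0.16, -0.19 and 0.23 in H2, H3 and I2. The antagonists stood at -0.41, -0.11 and -0.04 in C4, C3 and B1 and at 0.26, 0.02 and 0.25 in the wild-type arrays. For the Smads the median deviation stayed between -0.12 and 0.11 on every array. These medians and SDs are descriptions of 6 arrays and were not tested.

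**Figure D4:**
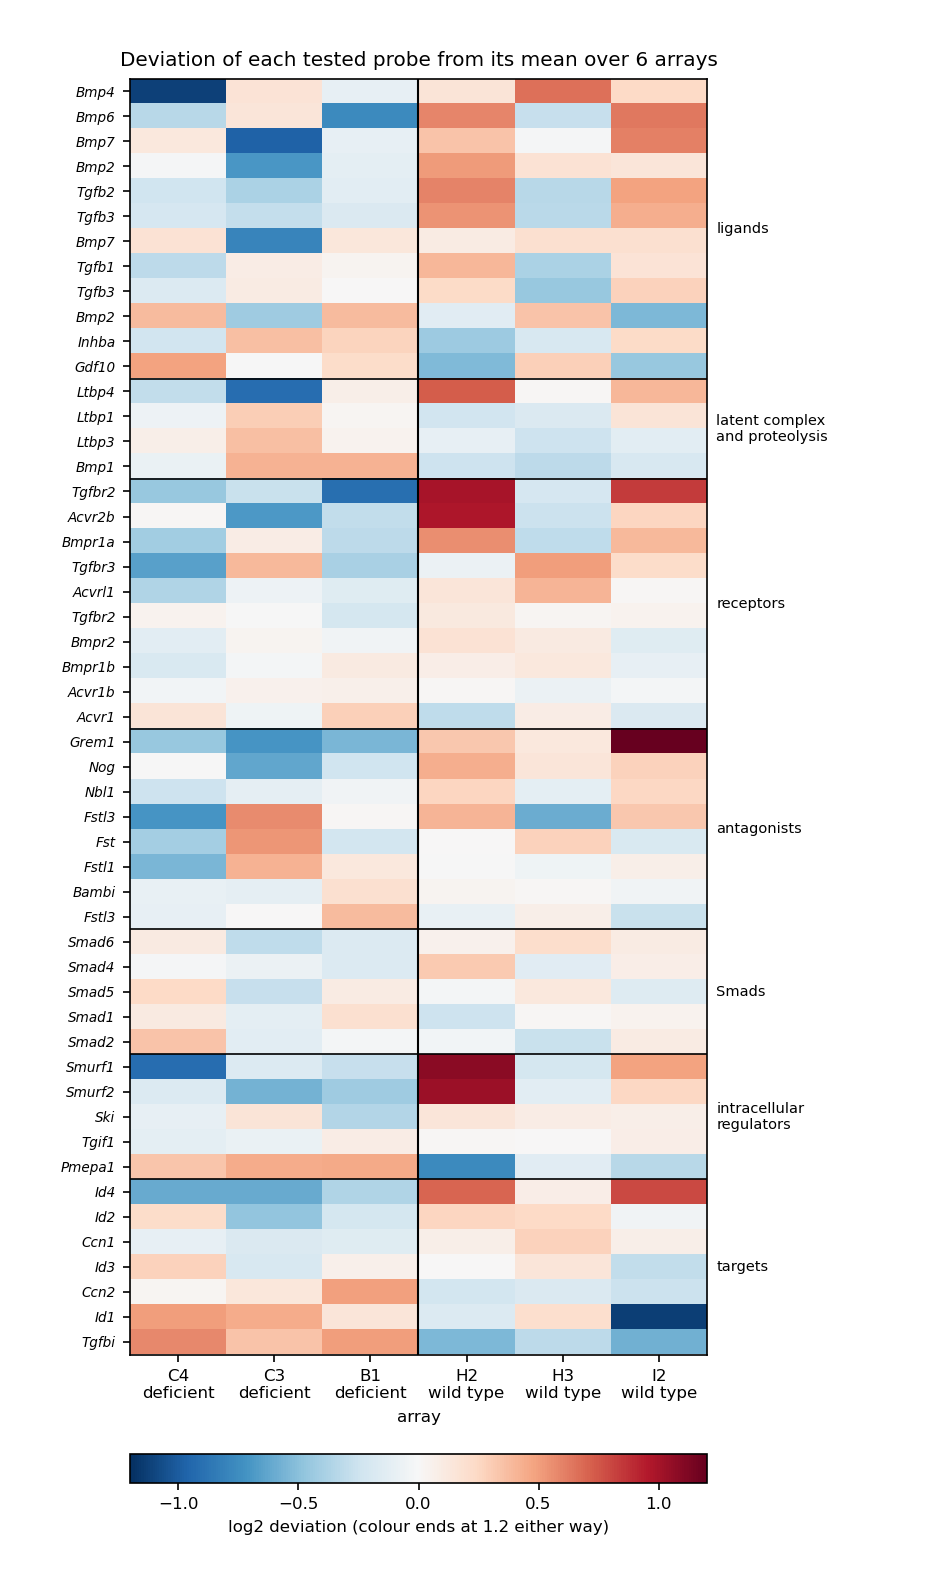
Log2 deviation of each tested probe from its mean over the 6 arrays, as colour from blue (below) to red (above), with arrays as columns and probes ordered by role. Column H2 is red for Tgfbr2 probe 1, Smurf1 and Smurf2, where H3 is pale. I2 is red for Tgfbr2 probe 1 and fainter for Smurf1 and Smurf2. The Smads are pale to faintly coloured on every array.

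Other genes of the pathway, 78 in number, were counted beside the list, and 70 had a probe. Of their 59 tested probes 2 rose, 1 fell and 56 did not pass in limma, or 5.08% called, and their median over genes was 0.10. Gdf6, a BMP-family ligand, read 6.93, 7.56 and 5.82 in C4, C3 and B1 and 1.67, 4.06 and 2.87 in H2, H3 and I2, without overlap (1.32 ± 0.29, limma adjusted p = 0.0361). Sostdc1, an antagonist of BMP and Wnt ligands, read 1.80, 1.73 and 1.55 against 3.27, 3.17 and 2.63 and fell by 0.83 (SE 0.16, limma adjusted p = 0.0293), with all 3 wild-type cultures above all deficient ones. By role the calls were 1 of 11 ligand probes, 2 of 13 probes of antagonists and extracellular regulators, and 0 of 4, 0 of 15 and 0 of 16 probes of receptors, intracellular members and targets. The target probes ran from -0.57 ± 0.22 for Cdkn1a to 0.35 ± 0.38 for Atoh8, and H3 had the highest Atoh8 signal of all arrays, 7.64. With single arrays left out 0 to 9 probes were called. The 9, without H3, added Bmp8a (-1.13), Inha (0.70), Bmper (0.98), Dcn (0.70), Atoh8 (0.86) and Cdkn1a (-0.79), with limma adjusted p-values of 0.0246 to 0.0447. Bmper was flagged low in H2 and entered the test through the deficient arrays alone. Bmp8a was flagged low in B1 and entered through the wild-type arrays alone. Gdf6 and Sostdc1 each passed in 1 of the 6 fits on 5 arrays, and Nrros in 2.

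Nrros, which tethers latent TGF-beta on macrophages, read 2.19, 3.91 and 3.19 in C4, C3 and B1 and 1.64, 0.639 and 0.784 in H2, H3 and I2. All deficient values were higher (1.68 ± 0.35, limma adjusted p = 0.0324). Of the macrophage markers C1qa, C1qb and Mrc1 rose in the same cultures, 3 of 6 tested probes, where 4.94% of all tested probes were called higher. The summed signal of the list was 48.0 to 147 in deficient and 21.2 to 46.7 in wild-type cultures. Mrc1 was flagged low in H2 and H3, at 0.388 and 0.608, and entered the test through the deficient arrays alone. For Cd14 and Lyz2 the groups overlapped. The general leukocyte gene Ptprc had a good flag on no array. The part of these cells in the Nrros difference was not tested.

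Markers of other cell types stood as follows beside the pathway genes, where 4.94% of all tested probes were called higher and 1.63% lower. Of the smooth muscle and myofibroblast list Myh11 and Actg2 rose, 2 of 8 tested probes, with sums of 918 to 1040 in deficient and 591 to 956 in wild-type cultures. In the chondrocyte and osteoblast list Col2a1 fell, 1 of 5 tested probes, with sums of 10.1 to 13.2 and 14.9 to 18.9 and with no good flag for Acan on any array. Sox9 of that list was higher in all deficient cultures without passing (0.39 ± 0.14). It was flagged low in H2 and H3 and entered the test through the deficient arrays alone. The endothelial sums were 4.25 to 5.19 and 3.59 to 3.78, with 0 of 2 tested probes called and with no good flag for Pecam1 and Cdh5 on any array. Epithelial sums were 4.19 to 4.68 and 3.61 to 5.14, with 0 of 3 called. In the neural list Tubb3 and Snap25 rose, 2 of 6 tested probes, with sums of 22.4 to 27.0 and 19.0 to 24.5. Sox10 (-0.45 ± 0.34) and the tested Map2 probe (-0.35 ± 0.22) went the other way without passing, with groups that overlapped. The called Tubb3 probe was flagged low in H2 and H3, so it entered the test through the deficient arrays alone. The other Tubb3 probe was not tested, and the other Snap25 probe was flagged low on all 6 arrays. In the fibroblast list Thy1 and Lum rose, 2 of 11. The Pdgfra probes of that list pointed in opposite directions without passing (0.93 ± 0.32 and -0.70 ± 0.29), and the latter was lower in all deficient cultures. With single arrays left out, Myh11 and Thy1 passed in 0 of 6 fits, and the other called marker genes passed in 1 to 3 of 6. The part of any of these cell types in the pathway results was not tested.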

How the data were processed

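RNA of 6 cultures was read on 1-colour CodeLink arrays, scanned with a GenePix scanner and quantified with CodeLink Expression Analysis 4.1.0.29054, per the labels and the file headers. The deposited normalized intensity, median normalized by the authors, equals spot mean minus local background median over the array's median transcript probe. The other deposited columns (spot mean, background, flags) served for alternatives and filters. Values under 0.57, the median over arrays of the 1st percentile of good spots, were set to 0.57, and masked spots were missing. A probe was kept where every array of 1 genotype or the other flagged it good. The 19575 kept probes were tested with limma 3.58.1 in R 4.3.3 (two-sided, Benjamini-Hochberg over all of them, threshold 0.05). The fit was tested on simulated data. Differences are deficient minus wild type on the log2 scale, and ± is the standard error unless SD is written.

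Medians over genes use each gene's tested probe with the highest mean. Symbols came from the platform annotation (21615 probes with 1 symbol, 681 with several, 12671 with none), promoters from RefSeq. Full values were given for members past the adjusted threshold or at an unadjusted p under 0.05 and for all targets, 17 probes in all. Tgfb2, Tgfb3, Smad4 and the second Tgfbr2 probe were added after their values were seen. The members and lists, including 7 marker lists, were chosen with earlier results of these data known. A genome build for the array probes and the litters were not given in the sources used here, and with 3 arrays a genotype their number limits the precision. Alternatives are in the closing section.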

Additional observations from a re-analysis of the deposited data

How the results depend on the processing

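No paired analysis was possible because which cultures shared a litter is not stated. The 17 member probes named by rule gave 304 comparisons with an alternative. Of these 235 kept direction and side of the threshold, 23 newly passed, 42 no longer passed and 4 reversed. All 42 losses were of the called probes Tgfbi, Pmepa1, Grem1 and Id4, and the 235 include uncalled probes that stayed uncalled. The 23 newly passed only with array weights, with the leading letter of the culture name as a random block, or without H3. All 4 reversals were of Id3 (0.10): -0.02 after quantile normalization, -0.01 with the leading letter of the culture name as a random block, -0.01 without C4 and -0.02 without I2. The cause was not tested.

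Counts of calls moved with most settings. In the order all probes, members higher, members lower and other pathway probes, limma with all arrays gave 1286, 2, 2 and 3. Normexp gave 576, 1, 0 and 1; a floor of 0.01 gave 275, 1, 0 and 0; a floor of 1.14 gave 191, 1, 0 and 1. No filter on flags gave 20, 0, 0 and 0, and Eif2s3y as a covariate 23, 0, 0 and 0. Array weights gave 4720, 6, 11 and 13. In that fit I2 had a weight of 3.56 against 0.67 for H2 and 0.53 for H3, so the wild-type side rested mostly on 1 culture. The letter block, with an estimated within-letter correlation of -0.886, gave 12901, 11, 24 and 32. Each letter lies in 1 genotype, and a negative correlation narrows the standard error of the genotype difference. Counts with the letter block are therefore no support for a call. The methods' t-test after Benjamini-Hochberg gave 7, 0, 0 and 0. Quantile normalization gave 737 of all probes and 1 member in each direction. The methods' t-test with a ratio over 2 or under 0.5 gave 606 of all probes, 0 members higher, 2 members lower and 2 other pathway probes. A good flag on all 6 arrays left 1 member lower, since Id4 was then not tested. With single arrays left out the ranges were 5 to 2726 for all probes, 0 to 4 for members higher, 0 to 8 for members lower and 0 to 9 for other pathway probes.

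Role medians moved less. The ligand median was -0.06 without a filter, the Smad median -0.06 with the letter block, and the receptor median -0.25 with a good flag on all 6 arrays and -0.38 with the mean of a gene's probes. With single arrays left out they ran from -0.41 to -0.20 for ligands, 0.14 to 0.31 for the latent complex, -0.18 to -0.09 for receptors, -0.39 to 0.04 for antagonists, -0.08 to 0.18 for Smads, -0.33 to -0.13 for intracellular regulators and -0.02 to 0.22 for targets. Of the called members Tgfbi passed in 8 of 11 alternatives other than left-out arrays, Grem1 and Pmepa1 in 4 of 11 and Id4 in 4 of 10. Each of these counts includes the letter block and the array weights. The negative control spots reached 0.300 to 0.397 at their 95th percentile. In C4 and C3 this percentile was 0.397 and 0.335, above the Id4 signals of 0.253 and 0.292 on those arrays.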

Other observations

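Some secreted and cell-surface genes outside the main list stood close to the threshold. They were chosen after their values were seen. Bmper, a BMP-binding protein, read 1.56, 1.10 and 1.05 in C4, C3 and B1 and 0.441, 0.891 and 0.672 in H2, H3 and I2, without overlap (0.80 ± 0.22, limma adjusted p = 0.0636, and 0.98 with adjusted p = 0.0246 without H3). Its H2 spot was flagged low and set to the floor, so Bmper entered the test through the deficient arrays alone. Inha, the alpha subunit of inhibin, read 1.98, 1.49 and 1.91 against 1.05, 1.27 and 1.15, with C3 flagged as irregular. The difference was 0.63 ± 0.17 (limma adjusted p = 0.0625), and 0.70 without H3 (limma adjusted p = 0.0447). Itgav, the integrin subunit that takes part in activating latent TGF-beta, read 70.4, 77.6 and 77.8 against 43.0, 51.7 and 57.6 (0.58 ± 0.16, limma adjusted p = 0.0684), and its other probe was flagged low on all 6 arrays. All 3 were higher in each deficient culture, and none passed with all 6 arrays.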
